A study of Mus musculus with 36 samples.

Results

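The 43 mouse genes described here carry out or control the cell's answer to a shortage of amino acids and to misfolded protein in the endoplasmic reticulum (ER). They were chosen by name from their known roles, with earlier results of these data known, and fall into an ATF4 arm of 28 genes and an ER chaperone arm of 15 genes. All 43 were among the 20325 genes of each library's table, and all 43 passed the filter on low counts in every fit. The ATF4 arm holds stress regulators (Atf4, Ddit3, Ddit4, Trib3, Chac1, Sesn2, Nupr1), amino acid synthesis enzymes (Asns, Psat1, Phgdh, Psph, Aldh18a1, Pycr1, Bcat1, Gpt2), mitochondrial one-carbon enzymes (Shmt2, Mthfd2), amino acid transporters (Slc7a3, Slc7a5, Slc7a11, Slc3a2) and enzymes that charge tRNAs (Cars, Sars, Gars, Wars, Nars, Mars, Aars). The ER chaperone arm holds the transcription factor Xbp1, chaperones and disulfide isomerases (Hspa5, Hsp90b1, Pdia4, Pdia6, Calr, Hyou1), co-chaperones and secreted ER factors (Dnajb9, Dnajc3, Sdf2l1, Creld2, Manf) and genes that degrade misfolded ER protein (Herpud1, Sel1l, Edem1).

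RNA was sequenced from 36 libraries in 18 groups of 2, most of them of embryonic mouse fibroblasts (MEFs) or of cells being reprogrammed from them, with or without SGC0946, an inhibitor of the histone H3 lysine 79 methyltransferase DOT1L. The MEFs were E13.5 cells and carried a doxycycline-inducible cassette of Oct4, Klf4, Sox2 and c-Myc, homozygous at Col1a1, with a heterozygous reverse tetracycline transactivator at Rosa26. The timecourse had uninduced MEFs, day 2 cells on doxycycline with DMSO or with SGC0946, and day 4 cells with DMSO throughout (control), SGC0946 over days 0 to 2 (early window), over days 2 to 4 (mid window) or over days 0 to 4 (full window). For the sort, cells on doxycycline for 3.5 days were separated by surface CDH1 (E-cadherin, an epithelial adhesion protein) into CDH1- and CDH1+ fractions and kept on doxycycline with DMSO or SGC0946 until day 5.5. In the lentivirus experiment, MEFs of the same genotype carried an empty or a Cdh1-expressing virus and were taken uninduced or at day 2 with DMSO or SGC0946. V6.5 embryonic stem cells (ESCs), without the cassette, were taken 24 h after removal of feeder cells. Uninduced MEFs were grown in MEF medium and induced cells in ESC medium on irradiated feeder MEFs, so induction, medium and feeder RNA cannot be told apart in any comparison of induced cells with MEFs. No label ties the 2 libraries of a group to different cultures, and the p-values below therefore measure no more than the spread between these libraries, which may be technical.

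The timecourse libraries held 32.9 to 50.9 M counts (M, 1000000), the sort libraries 34.9 to 43.1 M, the lentivirus libraries 18.5 to 35.9 M and the ESC libraries 30.7 and 35.2 M. Summed over 6 fibroblast markers, MEFs held 19470 and 19568 CPM (counts in a library scaled to 1000000) in the timecourse and ESCs 130.2 and 149, while 6 pluripotency markers summed to 3.90 and 4.65 CPM in those MEFs and to 3009 and 3113 CPM in ESCs. The pluripotency markers include Pou5f1 (Oct4) and Sox2, which the cassette also encodes. In the sums for induced cells given below, RNA of the cassette and of the cells' own genes cannot be told apart. SGC0946 acts on the DOT1L enzyme, so the RNA of Dot1l is no check of the treatment. The Cdh1 virus was checked by Cdh1 itself, which stood at 171 and 179 CPM in Cdh1-virus MEFs against 0.41 and 0.49 CPM in empty-virus MEFs. One of the Cdh1-virus MEF libraries is called a day 2 sample in its source field and a MEF sample in its title and treatment, and was kept with the MEFs.

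ATF4 is a transcription factor made when kinases that sense uncharged tRNAs, ER stress or other insults phosphorylate the translation initiation factor eIF2. It switches on enzymes, carriers and tRNA synthetases that restore the amino acid supply, and regulators such as CHOP (Ddit3) and TRIB3 that shape the length and outcome of the response. In the ER, the sensors IRE1, ATF6 and PERK detect unfolded protein: IRE1 and ATF6 act through XBP1 and cleaved ATF6 on chaperone and degradation genes, while PERK feeds into ATF4. Fibroblasts secrete much collagen and other matrix and need a large folding apparatus, whereas cycling pluripotent cells need much serine, glycine and one-carbon units.

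The promoters of the arms differ in the letters known for each pathway. Windows of 300 bases, from 250 before to 50 after a gene's start, were available for 36 of the 43 members from RefSeq (build GRCm38.p6). The ER stress element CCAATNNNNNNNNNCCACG, known to bind NF-Y with ATF6, was searched on both strands and was present in 6 of 13 ER chaperone arm genes (46.2%), in 0 of 23 ATF4 arm genes and in 37 of all 27025 genes (0.137%). Those 6 were Hspa5, Calr, Hsp90b1, Pdia6, Dnajc3 and Creld2. The stretches of Hspa5 (BiP, the main ER chaperone), Calr (calreticulin) and Dnajc3 (a co-chaperone of BiP) are shown because these genes recur in the results below. Their elements begin 65, 162 and 105 bases before the start, and each is printed on its gene's strand with 20 bases on either side. Capitals mark the outer blocks of the element, which reads CGTGG then ATTGG where it lies on the other strand.
Hspa5, chr2:34772005-34772063, plus strand: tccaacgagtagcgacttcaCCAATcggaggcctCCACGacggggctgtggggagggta
Calr, chr8:84847055-84847113, minus strand: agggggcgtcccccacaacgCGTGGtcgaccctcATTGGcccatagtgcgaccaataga
Dnajc3, chr14:118937807-118937865, plus strand: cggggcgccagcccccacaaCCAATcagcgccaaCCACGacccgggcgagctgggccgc

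The core of the amino acid response element, TGATGNAA, to which ATF4 with a C/EBP partner is known to bind, was present on either strand in 8 of 23 ATF4 arm genes (34.8%), in 1 of 13 ER chaperone arm genes (7.69%, Herpud1) and in 1219 of all genes (4.51%). The 8 were Asns, Chac1, Trib3, Nupr1, Slc7a11, Gars, Pycr1 and Aars. The stretches of Asns, Chac1, Nupr1 and Aars are shown because these 4 genes share the core and differ in their changes below. Their cores begin 23, 193, 110 and 112 bases before the start, and that of Trib3 lies 15 bases after it. No base past a start is printed. Capitals mark the fixed letters, which read TT, 1 free base and CATCA on the other strand.
Asns, chr6:7693210-7693252, minus strand: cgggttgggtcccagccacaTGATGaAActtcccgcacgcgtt
Chac1, chr2:119351029-119351076, plus strand: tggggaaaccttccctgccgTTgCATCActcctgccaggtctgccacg
Nupr1, chr7:126625553-126625600, minus strand: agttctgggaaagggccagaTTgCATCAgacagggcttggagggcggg
Aars, chr8:111033710-111033757, plus strand: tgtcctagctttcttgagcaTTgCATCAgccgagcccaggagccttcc
The letters TGACGTGG, a further element of the unfolded protein response, were in none of the members' windows and in 0.714% of all genes. A match describes the letters of a window and not the binding of a factor.

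Levels of different genes were compared as TPM (transcripts in a library of 1000000), which corrects for gene length. In timecourse MEFs the highest of the 43 were Calr at 1778 ± 3.37 TPM (SD, n = 2), Hsp90b1, an ER-resident HSP90, at 1348 ± 31.8 and Hspa5 at 1128 ± 35.6. The ATF4 arm was led there by Atf4 itself at 405 ± 6.96 TPM and by Phgdh, the first enzyme of serine synthesis, at 391 ± 1.00, and was lowest for Slc7a3 at 5.13 ± 0.22. By day 4 the ATF4 arm was led by Ddit4, a brake on mTORC1, at 203 ± 0.59 TPM and by Psat1, the second serine synthesis enzyme, at 198 ± 0.67, and Chac1, a glutathione-degrading enzyme, was lowest at 2.88 ± 0.04. In ESCs Psat1 at 584 ± 16.5 TPM stood beside Hspa5 at 559.7 ± 8.49 TPM, and Slc7a11, the cystine carrier, was lowest at 5.38 ± 1.27.

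In the timecourse nearly the whole ER chaperone arm was below its MEF level at day 2 and all of it at day 4, while most of the drop in the ATF4 arm came between day 2 and day 4. At day 2, 14 of 15 ER chaperone genes fell and 1 rose, with a median change of -0.58 (log2), while in the ATF4 arm 16 of 28 fell, 7 rose and 5 did not pass the test, with a median of -0.10. At day 4 all 15 ER chaperone genes were lower than in MEFs (median -1.22), and in the ATF4 arm 22 were lower, 4 higher and 2 not called (median -0.86). A gene was called where the edgeR quasi-likelihood test gave a Benjamini-Hochberg adjusted p under 0.05 over all genes tested, and adjusted p-values below are of that kind. Such calls were common in these comparisons: 74.4% of all genes were called at day 2 (40.4% higher, 34% lower) and 82.2% at day 4 (41.2% higher, 41% lower), with medians over all genes of 0.06 and 0.01. Between day 2 and day 4, 21 ATF4 arm genes fell and 5 rose (median -0.89) and 14 ER chaperone genes fell and 1 rose (median -0.71), where 77.8% of all genes were called (38.1% higher, 39.7% lower). These comparisons share the MEF, day 2 or day 4 libraries with each other. Here and below, many members were picked for full description because their libraries did not overlap. Separate libraries in them describe the values and add no support, and the share of all genes with separate libraries is not given. In bulk RNA, fewer cells of a type and less RNA per cell cannot be told apart.

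**Figure D1:**
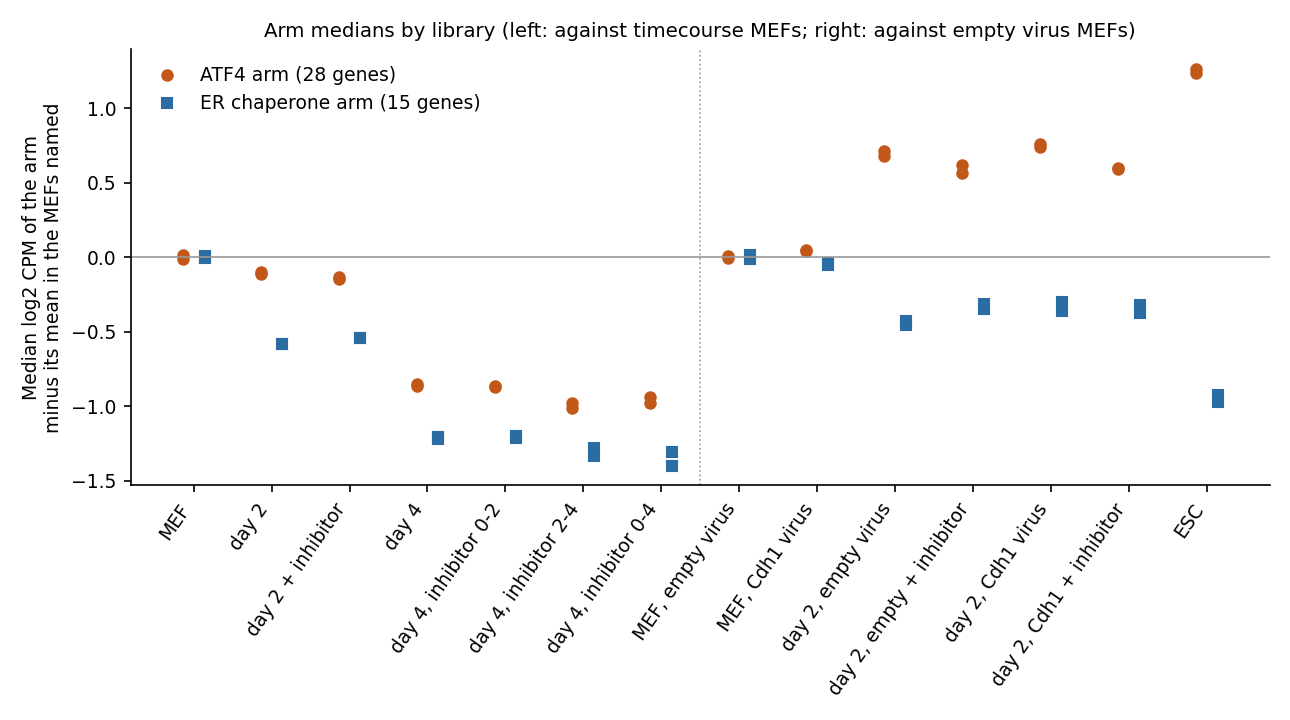
Each gene's log2 CPM in a library was taken minus that gene's mean in the reference MEFs. Points show the median over the 28 ATF4 arm genes and over the 15 ER chaperone arm genes, 1 point per arm and library. Reference MEFs are timecourse MEFs on the left and empty-virus MEFs on the right. The ER chaperone arm lies at -1.21 and -1.22 in day 4 control libraries, and in ESCs the ATF4 arm lies above 0 and the ER chaperone arm below it.

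Among the stress regulators, Atf4 fell stepwise from 384 and 359.8 CPM in the MEF libraries to 259 and 251 at day 2 and 158 and 157 at day 4. Its changes from MEFs were -0.54 ± 0.033 (SE, adjusted p = 1.8e-18) and -1.24 ± 0.033 (SE, adjusted p = 1.1e-30) on the log2 scale. No library of one stage overlapped with another. Ddit3, which encodes CHOP, stood at 46.3 and 41.3 CPM in MEFs, 11.6 and 11.5 at day 2 and 11.8 and 10.1 at day 4. Its whole drop, -1.93 ± 0.078 (SE, adjusted p = 3.3e-24), was in place by day 2, and the day 4 libraries spanned those of day 2. Trib3, a pseudokinase induced by ATF4 and CHOP, kept falling, from 43.9 and 40.8 CPM to 12.6 and 11.9 and then 4.79 and 4.55. At day 4 it was 9.07-fold lower than in MEFs, -3.18 ± 0.083 (SE, adjusted p = 4.3e-31). Chac1 went the same way, from 26.2 and 25.7 CPM to 7.02 and 8.15 and 2.24 and 2.26, which made it 11.5-fold lower at day 4, -3.52 ± 0.10 (SE, adjusted p = 2.8e-29).

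The other 3 stress regulators did not follow. Nupr1, a small chromatin protein of the stress response, rose to 130.1 and 120.0 CPM at day 2 from 49.7 and 41.4, a change of 1.46 ± 0.076 (SE, adjusted p = 1.1e-09), and was back at 41.9 and 39.3 CPM at day 4. The day 4 and MEF libraries of Nupr1 overlapped and their difference, -0.17 ± 0.083, was not called. Ddit4 stood at 71.0 and 63.8 CPM in MEFs and 67.8 and 70.0 at day 2, and reached 171 and 170.3 CPM at day 4, 1.34 ± 0.047 (SE, adjusted p = 1.6e-21) above MEFs. Sesn2, a leucine sensor that restrains mTORC1, was higher by 0.23 at day 2 and 0.14 at day 4.

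Amino acid synthesis and one-carbon genes showed mixed changes at day 2 and were lower at day 4. Of 8 synthesis genes 1 was higher and 5 lower at day 2, and 1 was higher and 7 lower at day 4. Psat1 rose from 321 and 332 CPM to 496 and 477 at day 2 and fell to 213 and 213 at day 4, changes of 0.58 ± 0.031 and -0.61 ± 0.032 from MEFs, both with separate libraries. Asns, asparagine synthetase and a standard readout of ATF4, stood at 127 and 129.6 CPM in MEFs and 133 and 132 at day 2, a difference of 0.05 ± 0.038 that was not called (adjusted p = 0.25). It was lower at day 4, at 92.1 and 91.2 CPM, -0.48 ± 0.039 (SE, adjusted p = 1.1e-14). Pycr1, the last enzyme of proline synthesis, went the opposite way, from 10.1 and 10.9 CPM to 6.92 and 6.51 at day 2 and 18.0 and 17.5 at day 4, and was the 1 synthesis gene above MEFs at day 4 (0.76 ± 0.079). Mthfd2, which oxidises one-carbon units in mitochondria, held 135 and 127 CPM in MEFs and 103 and 103 at day 2, and lost most of its level between day 2 and day 4, when it stood at 18.4 and 18.4 CPM. At day 4 it was 7.12-fold lower than in MEFs, -2.83 ± 0.047 (SE, adjusted p = 6e-38), and the largest drop from day 2 to day 4 of the 43 members, -2.49 ± 0.048. Shmt2, which feeds serine into that route, changed by 0.14 at day 2 and by -0.83 (log2) at day 4.

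The other synthesis members were below MEFs at day 4. Phgdh stood at 398 and 384 CPM in MEFs, 362 and 375 at day 2 and 164 and 163 at day 4, -1.26 ± 0.035 (SE, adjusted p = 2.5e-30). Bcat1 stood at 172 and 178, 162 and 163 and 66.7 and 64.97 CPM, -1.41 ± 0.038 (SE, adjusted p = 1e-30). In both genes each stage lay below the one before. Aldh18a1, the first enzyme of proline synthesis (-0.22 ± 0.035 at day 2 and -0.60 ± 0.036 at day 4), and Gpt2 (-0.29 ± 0.055 and -0.16 ± 0.054) were lower at both, and Psph was not called at day 2 (0.12 ± 0.061) and lower at day 4 (-1.08 ± 0.065).

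The transporters split by gene. Slc7a3, a carrier of arginine and lysine, rose at each stage, from 6.89 and 6.22 CPM in MEFs to 16.9 and 16.9 at day 2 and 26.8 and 27.8 at day 4, 2.06 ± 0.08 (SE, adjusted p = 4.7e-25). Slc7a5, the light chain of the leucine carrier LAT1, held 261 and 266 CPM in MEFs and 240.3 and 244 at day 2, and 84.4 and 85.6 at day 4, -1.63 ± 0.035 (SE, adjusted p = 2.1e-34). Its partner Slc3a2, the heavy chain shared with other carriers, stood at 228 and 223 CPM in MEFs and 222 and 223 at day 4, a difference that was not called (adjusted p = 0.55). Slc7a11, whose cystine import supplies glutathione, stood at 75.0 and 80.8 CPM in MEFs, 84.3 and 83.1 at day 2, where it was not called, and 28.3 and 28.4 at day 4, -1.46 ± 0.077 (SE, adjusted p = 2.8e-11). All 7 tRNA charging genes were lower at day 4, from -2.04 for Aars to -0.56 for Mars, after 4 were lower and 2 higher at day 2. Aars, which loads alanine, stood at 438 and 436 CPM in MEFs, 289 and 290.2 at day 2 and 107 and 106 at day 4.

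The 6 chaperones and isomerases all fell at both stages. Calr, which folds glycoproteins with bound calcium, fell from 1883 and 1814 CPM to 866 and 833 and 455 and 438, and was 4.14-fold lower at day 4, -2.05 ± 0.033 (SE, adjusted p = 2.3e-38). Hspa5 stood at 1545 and 1552 CPM in MEFs, 1032 and 1046 at day 2 and 484 and 478 at day 4, with changes from MEFs of -0.58 ± 0.03 and -1.69 ± 0.031. The libraries of the 3 stages did not overlap in either gene. Manf, a secreted ER factor, stood at 185 and 172 CPM, 105 and 106 and 52.5 and 54.0, and at day 4 had changed by -1.75 ± 0.041. Xbp1 and the degradation gene Herpud1 made most of their drop by day 2: Xbp1 went from 136 and 134 CPM to 65.7 and 72.9 and then 58.1 and 57.8, with -0.96 ± 0.041 at day 2 and -1.22 ± 0.042 at day 4. Herpud1 changed by -0.79 ± 0.048 at day 2 and -0.91 ± 0.048 at day 4. Sdf2l1, an ER-lumen co-chaperone partner, was the exception at day 2, with 27.9 and 29.0 CPM against 20.9 and 19.4 in MEFs, 0.50 ± 0.071 (SE, adjusted p = 5.7e-08), and was below MEFs at day 4 at 16.0 and 18.2 CPM. Dnajb9, a co-chaperone that restrains IRE1, was lowest at day 2, 10.1 and 11.5 CPM against 21.2 and 23.6 in MEFs and 12.8 and 12.4 at day 4. The other chaperones and isomerases were lower at day 4 too, with Hsp90b1 at -1.41 ± 0.033, Pdia4 at -1.44 ± 0.032, Pdia6 at -1.54 ± 0.032 and Hyou1 at -1.01 ± 0.037. Among the rest, Dnajc3 stood at -1.20 ± 0.039, Creld2, a secreted ER stress protein, at -1.63 ± 0.061, Sel1l at -0.74 ± 0.035 and Edem1 at -0.55 ± 0.039.

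**Figure D2:**
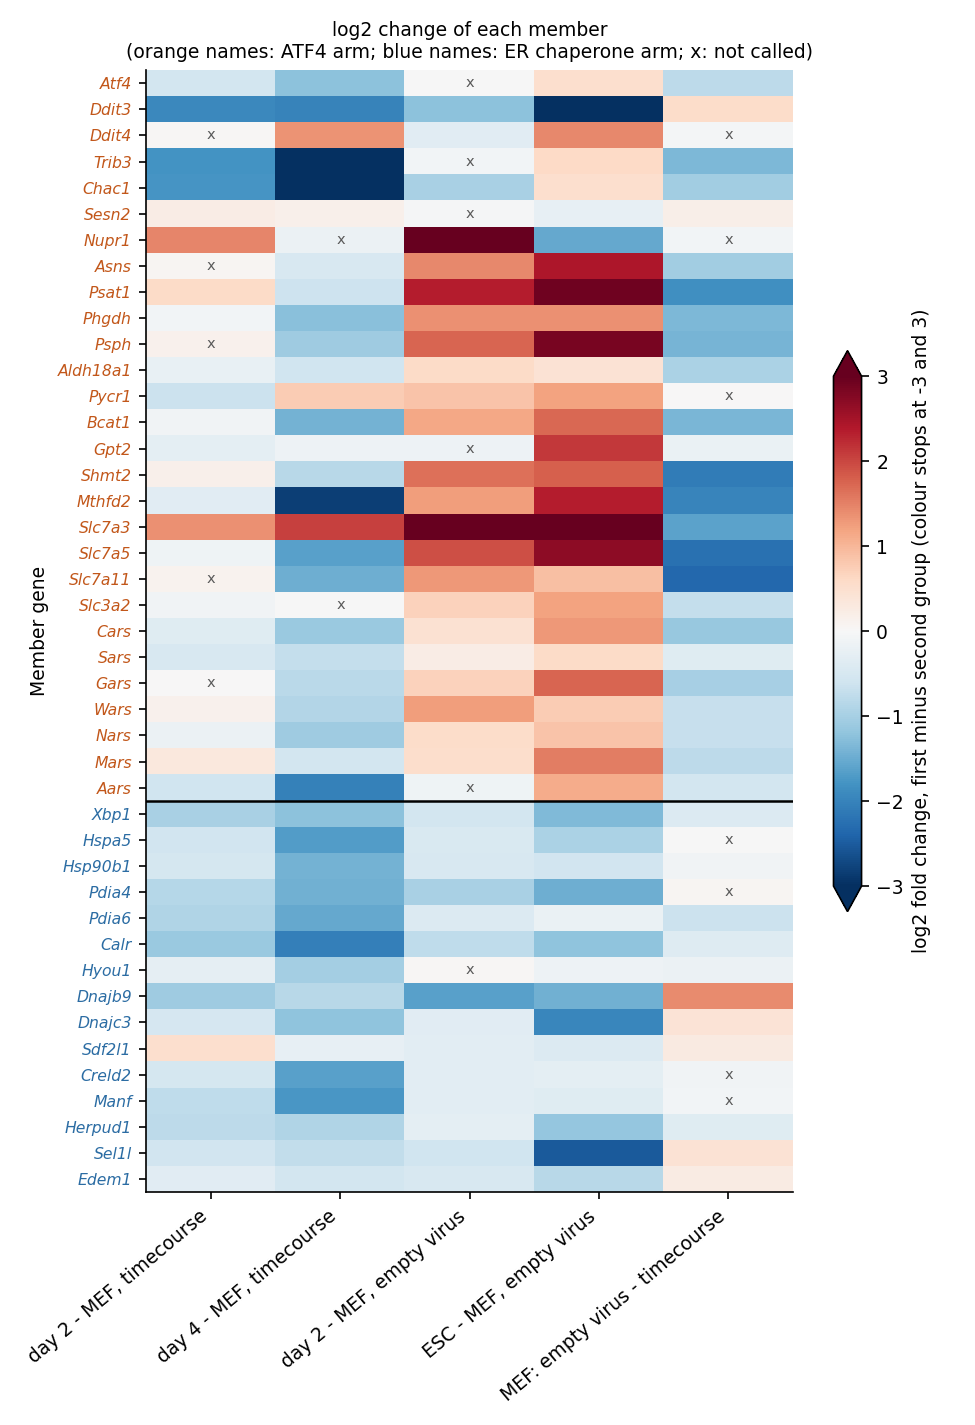
Log2 change of each of the 43 members in 5 comparisons, red for higher and blue for lower, with the colour scale ending at 3 in either direction; a cross marks a change that was not called. All 15 ER chaperone genes are lower at day 4 of the timecourse and in ESCs, whereas 25 of 28 ATF4 arm genes are higher in ESCs and 22 are lower at day 4.

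Neighbouring pathways that hold none of the 43 members moved as follows, where 40.4% of all genes were higher and 34% lower at day 2. At day 4 these shares were 41.2% and 41%. Of 22 other genes of ER folding, translocation and degradation, 17 were lower and 2 higher at day 2 and 16 lower and 5 higher at day 4 (medians -0.41 and -0.68), among them the disulfide isomerases P4hb (-1.36 ± 0.03 at day 4) and Pdia3 (-1.42 ± 0.034). Of 12 cytosolic chaperones, 9 were higher and 2 lower at day 2 and 2 were higher and 9 lower at day 4, with Hspa8 at 0.63 at day 2 and Hsph1 at -1.34 at day 4. The 13 other cytosolic tRNA synthetases went from 7 higher and 2 lower to 2 higher and 9 lower. Among 13 regulators of the integrated stress response, 7 were lower at day 2 and 9 at day 4, led by Ppp1r15a, the eIF2 phosphatase subunit GADD34, at 21.3 CPM at day 4 against 98.9 in MEFs. Of 16 other amino acid enzymes and transporters 12 were higher and 3 lower at day 2. Cth, which makes cysteine, changed by 2.66 ± 0.056 at day 2, and Aldh1l2, a mitochondrial folate enzyme, by -2.33 ± 0.057.

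Markers of other cells moved with these stages. All 6 fibroblast markers were lower at both stages, with sums of 4906 and 5071 CPM at day 2 and 6250 and 6280 CPM at day 4. The 4 macrophage markers summed to 191 and 189 CPM in MEFs, 27.1 and 25.3 at day 2 and 95.9 and 92.5 at day 4, with 4 of 4 lower at day 2 and 3 of 4 at day 4 and none at 0 in both libraries of a group. Their part in the changes above was not tested.

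The lentivirus experiment repeated day 2 in other cultures, and there the arms changed in opposite directions. In cells with the empty virus, 20 of 28 ATF4 arm genes were higher at day 2 than in MEFs, 3 lower and 5 not called (median 0.70), while 14 of 15 ER chaperone genes were lower and none higher (median -0.47). Over all genes 66% were called, 33.4% higher and 32.7% lower, with a median of 0.00. By limma on TPM the ATF4 arm had 19 higher and 8 lower, and all 15 ER chaperone genes were lower. All 8 synthesis genes but Gpt2 were higher, as were both one-carbon genes, all 4 transporters and 6 of 7 tRNA charging genes.

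Psat1 stood at 93.5 and 94.3 CPM in empty-virus MEFs and 478 and 486 at day 2, a 5.14-fold higher level, 2.36 ± 0.061 (SE, adjusted p = 5.4e-20). Asns stood at 61.6 and 66.5 CPM in those MEFs and 173 and 174 at day 2, 1.44 ± 0.064 (SE, adjusted p = 1.4e-15). Slc7a5 went from 56.6 and 57.9 CPM to 223 and 212, 1.92 ± 0.074 (SE, adjusted p = 9.3e-17). In none of these genes did the MEF and day 2 libraries overlap. Slc7a3 was 12.7-fold higher at day 2, 27.0 and 28.8 CPM against 2.52 and 1.90, and Nupr1 10.0-fold higher, 480.2 and 399.6 CPM against 46.2 and 41.4. Mthfd2 (1.26 ± 0.067), Shmt2 (1.66 ± 0.063) and Psph, the last enzyme of serine synthesis (1.75 ± 0.09), were also higher. The RNA of Atf4 itself was 223 and 220.3 CPM in MEFs and 217 and 220.4 at day 2, a difference of -0.02 ± 0.063 that was not called, and that of Trib3 (-0.08 ± 0.10) was not called either. Ddit3 was lower, 26.9 and 29.1 CPM against 65.3 and 65.4, -1.22 ± 0.091 (SE, adjusted p = 3.3e-11). So were Chac1 (-0.97 ± 0.13) and Ddit4 (-0.35 ± 0.079).

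In the ER chaperone arm of the empty-virus cells Dnajb9 fell most, from 61.0 and 62.0 CPM to 19.2 and 20.2, -1.64 ± 0.089 (SE, adjusted p = 5.9e-14). Pdia4, a disulfide isomerase, went from 525 and 529 to 277 and 264 CPM (-0.96 ± 0.057) and Calr from 1539 and 1340.5 to 843 and 856 CPM (-0.76 ± 0.075). Hspa5 changed by -0.47 ± 0.062, Xbp1 by -0.55 ± 0.061 and Herpud1 by -0.30 ± 0.074, all called. Hyou1, an ER chaperone of the HSP110 family, was the 1 gene of the arm not called (0.04 ± 0.059). All 13 other cytosolic tRNA synthetases were higher (median 0.63), as were 11 of 16 other amino acid enzymes and transporters (median 0.69), with Cth at 84.3 CPM against 5.47. Of the 22 other ER genes 13 were lower and 2 higher.

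The day 2 change was then set against that of the timecourse. Of the 38 members called in the timecourse and the 37 called with the empty virus, 21 were called in the same direction in both and 11 in opposite directions. Of the 14159 genes tested in both, 6219 were called in the same direction and 1602 in opposite directions. In the ER chaperone arm 13 had the same direction, and Sdf2l1, higher in the timecourse and lower with the empty virus, was the exception. In the ATF4 arm 8 had the same direction (Nupr1, Slc7a3, Psat1, Shmt2, Wars and Mars higher, Ddit3 and Chac1 lower). The other 10 were lower in the timecourse and higher with the empty virus: Phgdh, Aldh18a1, Pycr1, Bcat1, Mthfd2, Slc7a5, Slc3a2, Cars, Sars and Nars. In a fit of both experiments together, the difference between the changes was called for 36 members, 25 ATF4 arm genes being more positive with the virus and 2 less, and 6 ER chaperone genes more positive and 3 less, where 57.6% of all genes were called (29.4% more positive, 28.2% less). Limma on TPM (log2(TPM + 1)) gave 24 and 2 in the ATF4 arm, and in the ER chaperone arm the split turned, with 2 more positive and 6 less. The median difference was 0.97 in the ATF4 arm and 0.16 in the ER chaperone arm. For Slc7a5 it was 2.05 ± 0.08 (SE, adjusted p = 1.8e-21), for Trib3 1.71 ± 0.12 (SE, adjusted p = 1.5e-14) and for Hspa5 0.11 ± 0.063, which was not called.

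The MEFs and the day 2 cells were then each compared between the experiments. These comparisons of one experiment with the other were chosen after the values had been seen. Between the MEFs, 23 of 28 ATF4 arm genes were lower in the empty-virus MEFs than in the timecourse MEFs and 2 were higher (median -0.98), against 6 lower and 5 higher of 15 in the ER chaperone arm (median -0.08). Of all genes 74.6% were called, 40.2% higher and 34.4% lower, with a median of 0.07. By limma on TPM the ATF4 arm had 21 lower and 6 higher, and the ER chaperone arm 1 lower and 11 higher. TPM were not rescaled between libraries, and by TPM the median of all genes was itself higher in the empty-virus MEFs, as given below. The part of that shift in these counts was not tested. Between the day 2 controls, 11 ATF4 arm genes were lower and 9 higher (median -0.07) and 2 ER chaperone genes lower and 6 higher (median 0.09), where 70.4% of all genes were called (36.1% higher, 34.2% lower). By limma on TPM these were 8 lower and 12 higher in the ATF4 arm and 1 lower and 9 higher in the ER chaperone arm.

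Slc7a5, scaled over both experiments, held 263 and 269 CPM in timecourse MEFs and 55.7 and 57.2 in empty-virus MEFs, -2.24 ± 0.06 (SE, adjusted p = 7e-27). At day 2 it held 244 and 247 CPM in the timecourse and 221 and 209 with the virus, a difference of -0.19 ± 0.054. Psat1 stood at 323 and 335 CPM in timecourse MEFs, 92.1 and 93.1 in empty-virus MEFs, and at day 2 at 503 and 482 and 474 and 479.8, where the difference was not called (adjusted p = 0.30). In both genes the outlying pair of libraries was that of the empty-virus MEFs. Shmt2 was 4.30-fold lower in empty-virus than in timecourse MEFs, 46.9 and 46.3 CPM against 203 and 199, and Mthfd2 had a difference of -1.98 ± 0.056. Trib3 held 44.2 and 41.3 CPM in timecourse MEFs against 17.9 and 15.5 in empty-virus MEFs, and 12.8 and 12.0 against 16.8 and 15.0 at day 2, so its high libraries were those of the timecourse MEFs. Hspa5 was level between the MEFs, 1557 and 1569 CPM against 1569 and 1556, with a difference that was not called. When TPM were tested, the difference of Hspa5 was 0.36 and the median of all genes lay between 0.34 and 0.38. Slc7a11 had the largest gap between the MEFs, 16.9 and 14.0 CPM against 75.6 and 81.7, -2.35 ± 0.24 (SE, adjusted p = 4.7e-07), and was still lower at day 2 (-1.16 ± 0.21). Ddit3 (0.54 ± 0.075) and Dnajb9 (1.42 ± 0.08) were higher in the empty-virus MEFs.

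**Figure D3:**
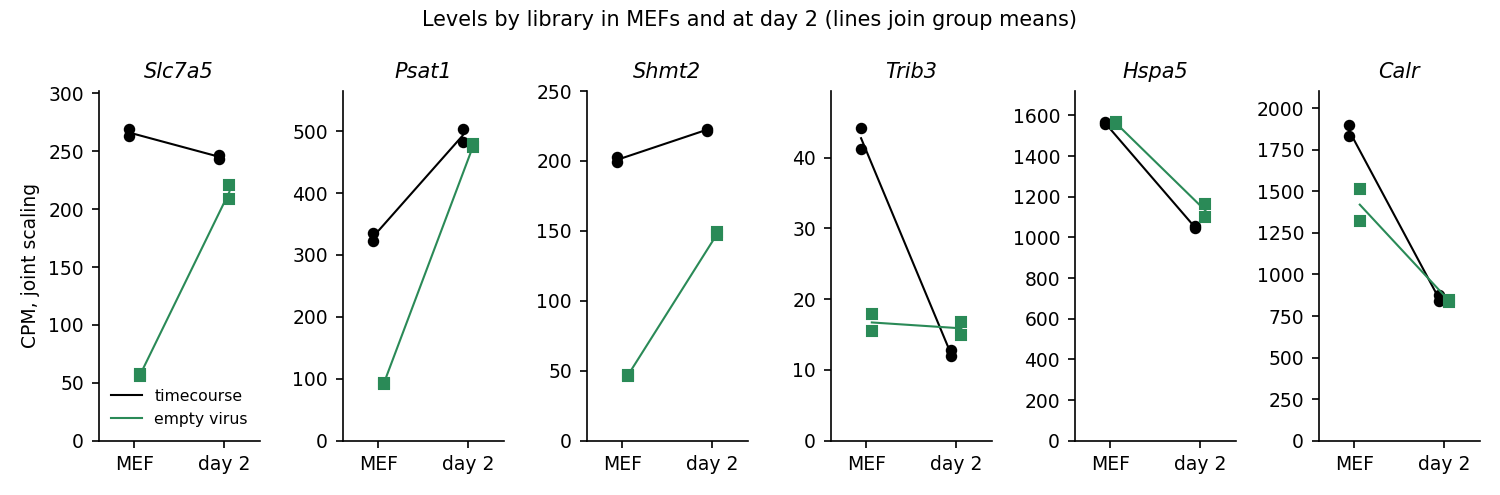
CPM on 1 scaling over both experiments for Slc7a5, Psat1, Shmt2, Trib3, Hspa5 and Calr in MEFs and day 2 control cells of the timecourse and of the empty-virus cells; each point is 1 library. Slc7a5, Psat1 and Shmt2 start lower in the empty-virus MEFs, while Hspa5 starts at the same level on this scaling (0.36 higher by TPM) and is lower at day 2 in both.

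The experiments differ in the virus, in the libraries (those of the timecourse were paired-end with human RNA added, the others are not so described) and in the cultures, which cannot be told apart. The macrophage markers summed to 1175 and 1284 CPM in the empty-virus MEFs and to 203 and 189 CPM at day 2, with 4 of 4 lower at day 2. Their part was not tested.

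ESCs were compared with the cells of the lentivirus experiment. Against empty-virus MEFs, 25 of 28 ATF4 arm genes were higher and 3 lower (median 1.25) and all 15 ER chaperone genes were lower (median -0.95), where 88.7% of all genes were called, 44.5% higher and 44.1% lower. All synthesis, one-carbon, transport and tRNA charging members were among the 25. By limma on TPM, 20 ATF4 arm genes were higher and 3 lower, and all 15 ER chaperone genes were lower. By TPM the median of all genes was itself lower in ESCs, as given in the last section, and its part in these counts was not tested. DESeq2 and RLE scaling each kept 25 higher and 3 lower in the ATF4 arm and called 13 ER chaperone genes lower. Slc7a3 stood at 218 and 218 CPM in ESCs against 2.52 and 1.90 in MEFs, which made it 98.7-fold higher, 6.62 ± 0.10 (SE, adjusted p = 1.4e-25). Psat1 stood at 695 and 731 CPM (2.92 ± 0.062), Asns at 352 and 334 (2.42 ± 0.065) and Mthfd2 at 179 and 169.9 (2.36 ± 0.067). In each of these genes both ESC libraries lay above every other library of the fit. Atf4 was higher by 0.51 ± 0.062 and Trib3 by 0.61 ± 0.098. In both genes the empty-virus MEFs were themselves below the timecourse MEFs, by more than that (-0.78 ± 0.048 and -1.36 ± 0.082), and 23 of the 28 ATF4 arm genes were lower in those MEFs. ESCs were not tested against the timecourse MEFs. Ddit3, the CHOP gene, was lower in ESCs than in any lentivirus group, at 6.08 and 7.63 CPM, 9.48-fold lower than in empty-virus MEFs, -3.25 ± 0.10 (SE, adjusted p = 5.3e-19), and Nupr1 stood at 15.2 and 15.0 CPM (-1.54 ± 0.11). Sesn2 changed by -0.24 (log2).

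In the ER chaperone arm Sel1l, the scaffold of the ER degradation ligase, was lowest in ESCs, 48.9 and 49.1 CPM against 285 and 280.0 in MEFs, 5.77-fold lower, -2.53 ± 0.061 (SE, adjusted p = 6.8e-22). Dnajc3 stood at 51.7 and 57.7 CPM against 207 and 221 (-1.97 ± 0.073) and Pdia4 at 187 and 193 against 525 and 529 (-1.47 ± 0.057). Hspa5 changed by -0.95 ± 0.063, Herpud1 by -1.15 ± 0.076 and Xbp1 by -1.32 ± 0.063. Outside the members, 18 of 22 other ER genes were lower and 1 higher, with the lectin Os9 at 17.5 CPM against 175. All 6 mitochondrial chaperones and proteases and all 13 other cytosolic tRNA synthetases were higher, and 4 of 6 unfolded protein sensors and processing genes were lower, among them Eif2ak3, which encodes PERK (-1.12 ± 0.066), and Atf6 (-0.91 ± 0.073).

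Against day 2 cells with the empty virus, 21 ATF4 arm genes were higher in ESCs and 5 lower (median 0.57), and in the ER chaperone arm 1 was higher and 9 lower (median -0.33). Of all genes 85.6% were called there, 43.4% higher and 42.2% lower. By limma on TPM 18 ATF4 arm genes were higher and 6 lower, and 0 ER chaperone genes higher and 12 lower. Gpt2, an alanine aminotransferase, was at 142 and 135 CPM in ESCs against 28.2 and 29.3 at day 2, 2.27 ± 0.068 (SE, adjusted p = 8.5e-20). Nupr1 was 29.2-fold lower in ESCs than at day 2, -4.87 ± 0.11 (SE, adjusted p = 1.8e-18), the largest difference of the 43. Phgdh did not pass the test (adjusted p = 0.94), with 413 and 398 CPM against 416 and 392, and Pdia6, a disulfide isomerase, was the 1 ER gene above day 2 (0.22 ± 0.067). ESCs differ from the lentivirus cells in the virus, in genotype and in feeder removal as well as in cell type. The empty-virus MEFs were grown in MEF medium, so the medium may differ as well. None of these can be told apart. The chi-squared per degree of freedom, a measure of the spread between 2 libraries, was 10.29 in ESCs and 4.84 in the day 2 controls. The fit shares its estimate of the spread over all groups, so standard errors of ESC comparisons may be too small.

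At day 4 of the timecourse the DOT1L inhibitor changed 24 members after the full window, 20 after the mid window and 6 after the early window. After the full window, 9 ATF4 arm genes were higher and 6 lower at day 4 (median 0.05) and 5 ER chaperone genes higher and 4 lower (median 0.04). Over all genes 34.8% were called (19% higher, 15.8% lower), against 24 of the 43 members. After the mid window 1 ATF4 arm gene was higher and 12 lower (median -0.10) and 5 ER chaperone genes were higher and 2 lower (median 0.06), where 27.4% of all genes were called (14% higher, 13.46% lower). After the early window 2 ATF4 arm genes were higher and 1 lower and 3 ER chaperone genes higher, where 5.63% of all genes were called (3.19% higher, 2.45% lower). Limma on TPM called 2 members there, 1 ATF4 arm gene higher and 1 lower. The 6 members called after the early window fell to 2 when any 1 of the 4 libraries (early replicate 1 or 2, day 4 control replicate 1 or 2) was left out. The 3 windows share the day 4 control libraries. Taken against MEFs, the ATF4 arm median was -0.94 and -0.98 after the full window against -0.86 and -0.85 in controls. That of the ER chaperone arm was -1.40 and -1.31 after the full and -1.28 and -1.33 after the mid window, against -1.21 and -1.22. The sign of these small shifts of an arm therefore depends on how its median is taken.

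Bcat1, which starts the breakdown of leucine, isoleucine and valine, fell in all 3 windows. It stood at 66.7 and 64.97 CPM in day 4 controls, 52.9 and 55.8 after the early, 40.5 and 38.2 after the mid and 36.6 and 35.8 after the full window. The 4 groups did not overlap. Its changes were -0.27 ± 0.04 (SE, adjusted p = 6.9e-06), -0.74 ± 0.043 (SE, adjusted p = 9.4e-17) and -0.86 ± 0.043 (SE, adjusted p = 7.6e-20), in that order of windows, and after the full window it was 1.82-fold lower. Phgdh and Sesn2 fell when the inhibitor was present over days 2 to 4. Phgdh stood at 164 and 163 CPM in controls, 129 and 134 after the mid and 133 and 127 after the full window (-0.32 ± 0.036 and -0.33 ± 0.036). Sesn2 stood at 83.5 and 82.9, 68.0 and 66.3 and 68.4 and 61.6 CPM (-0.31 ± 0.045 and -0.36 ± 0.045). After the early window neither was called (adjusted p = 0.15 for Phgdh and 0.76 for Sesn2).

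Slc7a3 changed sign with the window. It stood at 26.8 and 27.8 CPM in day 4 controls, 40.6 and 38.9 after the early window, 19.6 and 20.3 after the mid window and 30.4 and 33.5 after the full window. Every early library was above, and every mid library below, both controls. The changes were 0.54 ± 0.063 (SE, adjusted p = 6.2e-08), -0.45 ± 0.068 (SE, adjusted p = 1.7e-06) and 0.23 ± 0.064 (SE, adjusted p = 0.0044). A direct test of early against mid gave 0.99 ± 0.066 (SE, adjusted p = 2.5e-14).

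**Figure D4:**
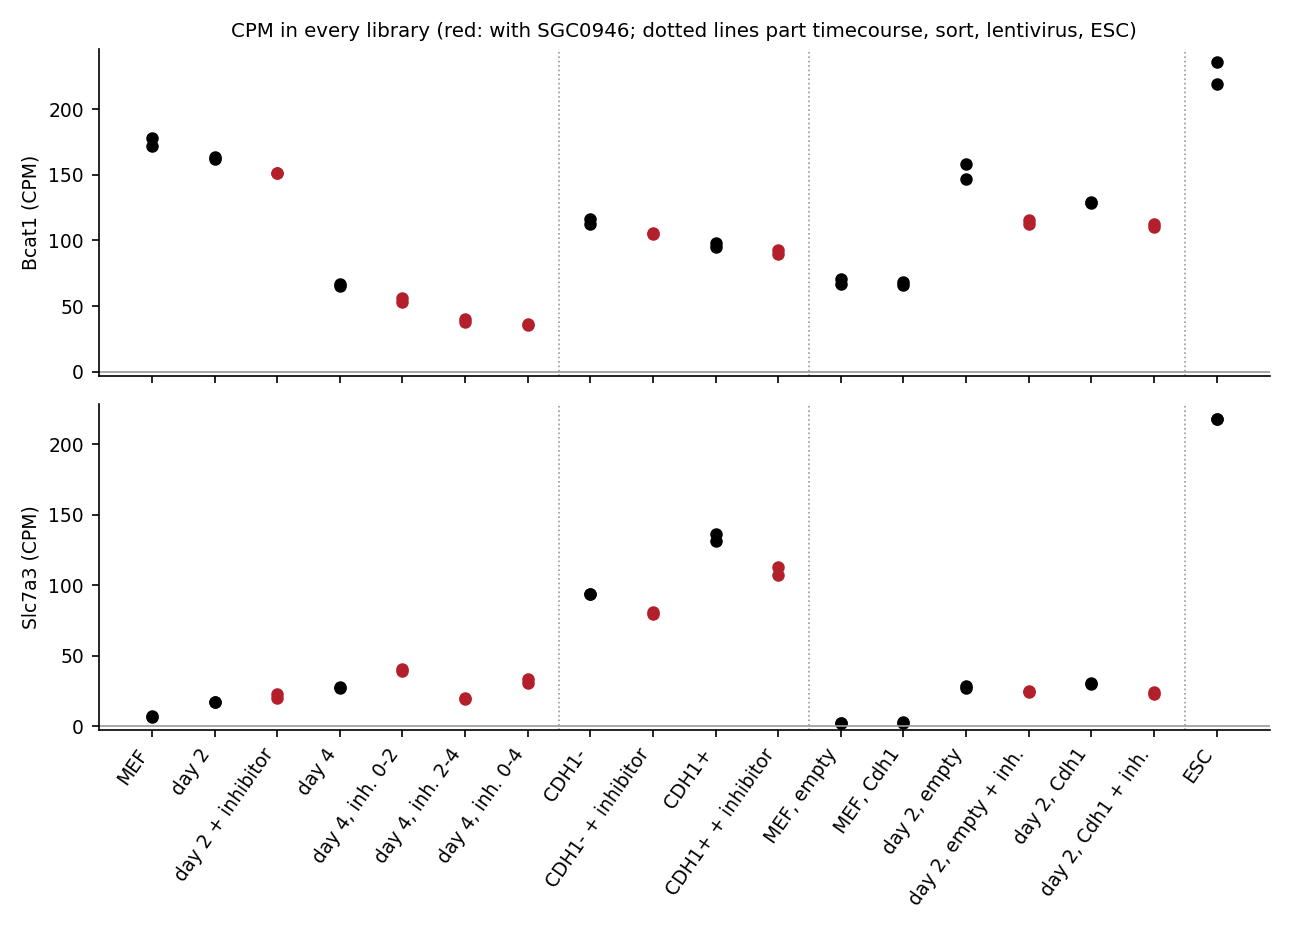
CPM of Bcat1 and Slc7a3 in each of the 36 libraries, 1 point per library, by group. Bcat1 falls from 66.7 and 64.97 CPM in day 4 controls to 36.6 and 35.8 after the full window, and Slc7a3 is lowest in MEFs and highest in ESCs.

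After the full window 4 of the 7 stress regulators rose (Nupr1, Chac1, Trib3 and Atf4), Sesn2 fell, and Ddit3 and Ddit4 were not called. Nupr1 stood at 66.1 and 61.0 CPM against 41.9 and 39.3 in controls, 0.64 ± 0.079 (SE, adjusted p = 3.4e-05). Chac1 stood at 3.57 and 3.03 against 2.24 and 2.26 CPM, 0.54 ± 0.14 (SE, adjusted p = 0.0015). Trib3 stood at 6.40 and 6.91 against 4.79 and 4.55 CPM, 0.51 ± 0.099 (SE, adjusted p = 5.8e-05). In each the treated libraries lay above both controls. Asns (0.23 ± 0.039), Mthfd2 (0.21 ± 0.056), Aars (0.20 ± 0.033) and Atf4 (0.17 ± 0.034) rose less. Ddit3 was not called in any window, with 11.9 and 10.3 CPM after the full window against 11.8 and 10.1.

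After the mid window the ATF4 arm moved down instead. Asns stood at 89.1 and 81.2 CPM, a change of -0.11 ± 0.04 (adjusted p = 0.043), and Mthfd2 at 15.8 and 16.9 CPM (-0.17 ± 0.061). Psat1 (-0.25 ± 0.033), Slc7a5 (-0.28 ± 0.037) and Gars, which charges glycine (-0.20 ± 0.032), fell as well, and Atf4 was the 1 gene of the arm that rose (0.10 ± 0.034). Trib3 and Chac1 were not called (-0.03 ± 0.11 and 0.18 ± 0.15). The mid-window libraries, of 32.9 and 35.8 M counts, were the least alike of any timecourse pair. Their chi-squared per degree of freedom, a measure of the spread between 2 libraries, was 11.13, against 1.90 to 7.28 in the other timecourse groups. The fit shares its estimate of the spread over all groups, so standard errors of mid-window changes may be too small.

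Tests between windows were added for full against mid and early against mid after the values had been seen. In full against mid, 13 ATF4 arm genes were higher and none lower by edgeR (17 of the 28 had an unadjusted p under 0.05), and 2 ER chaperone genes were higher and 3 lower, where 20.1% of all genes were called (11.6% higher, 8.51% lower). Limma on TPM gave 17 and 0 in the ATF4 arm and 2 higher and 0 lower in the ER chaperone arm. Trib3 differed by 0.54 ± 0.10 (SE, adjusted p = 0.00012), Mthfd2 by 0.37 ± 0.059 (SE, adjusted p = 7.4e-06), Asns by 0.33 ± 0.04 (SE, adjusted p = 2.4e-08) and Hspa5 by -0.11 ± 0.031 (SE, adjusted p = 0.011). In early against mid, 15 ATF4 arm genes were higher and none lower, and 1 ER chaperone gene was higher and 4 lower, where 21.2% were called (11% higher, 10.3% lower). Without early replicate 2, 13 members were called in place of 20. In full against early, 6 ATF4 arm genes were higher and 9 lower and 2 ER chaperone genes higher and 3 lower, where 31% were called (16.6% higher, 14.4% lower). With limma on TPM there were 7 higher and 6 lower in the ATF4 arm and 3 higher and 0 lower in the ER chaperone arm. Those 20 calls became 13 without early replicate 1 or full-window replicate 1 and 12 without full-window replicate 2. These 3 comparisons share the early, mid or full-window libraries with each other.

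In the ER chaperone arm every called change of the 3 windows lay between -0.26 and 0.25. Hspa5 stood at 484 and 478 CPM in day 4 controls, 511 and 520.3 after the early, 566 and 548 after the mid and 509.6 and 525 after the full window, with changes of 0.10 ± 0.031, 0.21 ± 0.031 and 0.10 ± 0.031. Calr stood at 455 and 438 CPM in controls, 474 and 491 after the early, 523 and 518 after the mid and 518 and 505 after the full window (0.11 ± 0.033, 0.22 ± 0.033 and 0.20 ± 0.033). Xbp1 stood at 58.1 and 57.8 CPM in controls, 64.2 and 63.8 after the early, 70.4 and 67.2 after the mid and 67.4 and 70.1 after the full window. Xbp1 was called higher in all 3 by edgeR (0.14 ± 0.043, 0.25 ± 0.044 and 0.25 ± 0.043). The early-window calls of this arm depended on the method: 3 genes were higher in the main fit, 1 with RLE scaling and 0 by limma on TPM. In Hspa5, Calr and Xbp1 all treated libraries lay above the controls. Edem1, a lectin-like factor of ER degradation (-0.26 ± 0.042 and -0.14 ± 0.04), and Dnajc3 (-0.11 ± 0.042 and -0.17 ± 0.041) fell after the mid and the full window, and Pdia4 (-0.15 ± 0.033) and Sdf2l1 (-0.21 ± 0.076) after the full window. Herpud1 was higher after the full window (0.15 ± 0.05) and not called after the others.

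**Figure D5:**
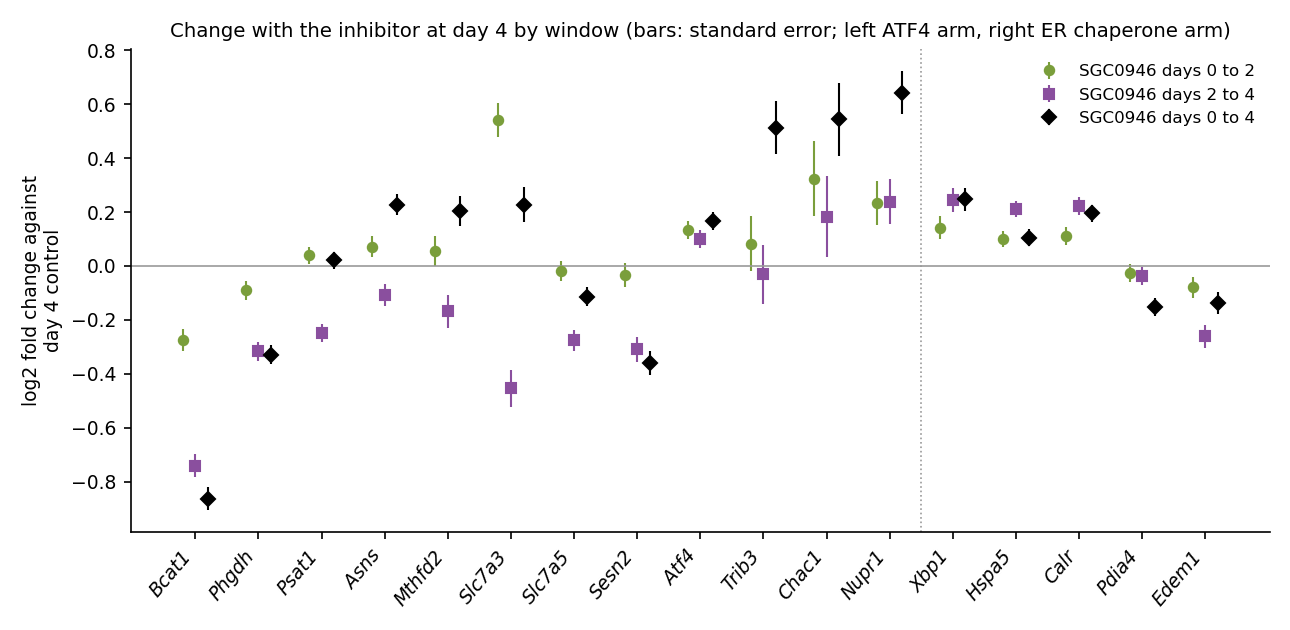
Log2 change against day 4 controls after the early, mid and full inhibitor windows for 17 members, as edgeR estimates with bars of 1 standard error; each estimate compares 2 libraries with the same 2 controls. Bcat1 lies below 0 in all 3 windows, Slc7a3 at 0.54, -0.45 and 0.23, and Trib3, Chac1 and Nupr1 highest after the full window.

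Outside the members, Slc38a1, a glutamine carrier, was lower after the mid (-0.41 ± 0.042) and full (-0.51 ± 0.042) windows. Among 13 stress response regulators 6 were higher and 1 lower after the full window, with Cebpb, which encodes a partner of ATF4, at 0.43 ± 0.065. Atf6 was lower after both (-0.36 ± 0.039 and -0.27 ± 0.038). The 4 epithelial markers summed to 14.1 and 13.6 CPM in day 4 controls, 19.0 and 20.0 after the early, 34.4 and 36.4 after the mid and 57.8 and 57.1 after the full window, with 1, 4 and 4 of 4 called higher. The fibroblast markers summed to 7149 and 6902 CPM after the full window against 6250 and 6280, with 4 of 6 higher and 2 lower. The 6 pluripotency markers summed to 335 and 348 CPM in controls, 362 and 348 after the early, 288 and 292 after the mid and 289 and 269 after the full window. These sums include Pou5f1 and Sox2, which the cassette also encodes. Of the 3 that were tested, 1 was higher after each window and 2 were lower after the mid and the full window. Their part in the inhibitor's changes was not tested.

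At day 2 of the timecourse the inhibitor changed 9 members. There 4 ATF4 arm genes were higher and 3 lower (median 0.03) and 1 ER chaperone gene was higher and 1 lower (median 0.03), where 17.8% of all genes were called (8.73% higher, 9.11% lower), a share near that of the members. Limma on TPM gave 5 higher and 0 lower in the ATF4 arm and 2 higher and 0 lower in the ER chaperone arm. Taken against MEFs, the ATF4 arm median lay lower with the inhibitor, at -0.14 and -0.15 against -0.11 and -0.10. That of the ER chaperone arm lay higher, at -0.54 and -0.54 against -0.59 and -0.58. Slc7a3 stood at 19.7 and 22.7 CPM against 16.9 and 16.9, 0.33 ± 0.07 (SE, adjusted p = 0.00055). Trib3 (0.27 ± 0.078), Nupr1 (0.26 ± 0.068) and Asns (0.13 ± 0.037) were higher too, and Sesn2 (-0.17 ± 0.044), Bcat1 (-0.10 ± 0.035) and Phgdh (-0.09 ± 0.033) lower. Of the ER genes Calr was higher (0.09 ± 0.032) and Edem1 lower (-0.15 ± 0.04). Atf4, Ddit3, Mthfd2, Hspa5, Herpud1 and Xbp1 were not called. The 9 called members became 4 without day 2 control replicate 1, 4 without control replicate 2, 2 without treated replicate 1 and 4 without treated replicate 2, and 16 when only the 2 groups compared were fitted. With the inhibitor the 4 epithelial markers summed to 14.9 and 14.6 CPM against 5.95 and 6.00, with 4 of 4 higher. The pluripotency markers summed to 307 and 310.4 CPM against 368 and 366, with 1 higher and 2 lower of the 3 tested. Their part was not tested.

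The inhibitor's effect was then compared between day 4 (full window) and day 2. The difference was called for 7 members, where 9.18% of all genes were called (5.61% more positive, 3.57% more negative): Nupr1 (0.38 ± 0.10), Atf4 (0.16 ± 0.047), Aars (0.14 ± 0.045) and Xbp1 (0.21 ± 0.061) were more positive and Bcat1 (-0.76 ± 0.055), Phgdh (-0.24 ± 0.049) and Pdia4 (-0.18 ± 0.046) more negative. Limma on TPM called 4, 1 ATF4 arm gene more positive and 2 more negative and 1 ER chaperone gene more negative. The count of 7 was 3 without day 2 control replicate 1, day 2 treated replicate 1 or 2 or day 4 control replicate 2, and 2 without day 4 control replicate 1. Slc7a3 was not called there (-0.10 ± 0.095).

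With the empty virus at day 2, 5 ATF4 arm genes were lower and none higher under the inhibitor (median -0.12) and 3 ER chaperone genes were higher and none lower (median 0.11), where 6.73% of all genes were called by edgeR (3.22% higher, 3.52% lower). With limma on TPM there were 2 lower in the ATF4 arm and 5 higher in the ER chaperone arm. Bcat1 stood at 116 and 113 CPM against 158 and 146, -0.41 ± 0.059 (SE, adjusted p = 0.00012). Wars, the tryptophan tRNA synthetase, stood at 143 and 148 against 181 and 169 CPM (-0.27 ± 0.055), and Phgdh (-0.23 ± 0.065), Sesn2 (-0.23 ± 0.065) and Shmt2 (-0.23 ± 0.059) were lower as well. Dnajb9 stood at 30.3 and 26.7 against 19.2 and 20.2 CPM, 0.52 ± 0.093 (SE, adjusted p = 0.0012), and Xbp1 (0.22 ± 0.062) and Sel1l (0.19 ± 0.057) were higher. In each of these genes the treated and control libraries were separate, which was a condition for choosing most of them and adds no support. The 8 calls became 2 without control replicate 1, 3 without control replicate 2 and 2 without treated replicate 1. Bcat1, Phgdh and Sesn2 were called lower here and at day 2 of the timecourse, which is 3 of 8 and 3 of 9 of the called members, and the experiments share no library. None was called in opposite directions. Over the 14159 genes tested in both, 393 were called in the same direction and 33 in opposite directions. Called or not, 14 of the 28 ATF4 arm genes and 12 of the 15 ER chaperone genes changed with the same sign. That is 26 of the 43 members, a share near that of all genes tested in both, 8638 of 14159. Macrophage markers summed to 157 and 159 CPM with the inhibitor against 203 and 189 (2 of 4 lower), and pluripotency markers to 146 and 162 CPM against 214 and 204 (2 of 6 lower). Their part was not tested.

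The difference between the experiments in this effect was itself called for 4 members, all more negative with the virus, where 4.29% of all genes were called (1.96% more positive, 2.34% more negative). Slc7a3 differed by -0.51 ± 0.11 (SE, adjusted p = 0.0042), Bcat1 by -0.30 ± 0.065 (SE, adjusted p = 0.0042), Wars by -0.22 ± 0.062 (SE, adjusted p = 0.036) and Psat1 by -0.19 ± 0.057 (SE, adjusted p = 0.045). The count was 2 without timecourse control replicate 1 or 2 or treated replicate 1, 1 without timecourse treated replicate 2 or empty-virus control replicate 1, 2 without empty-virus treated replicate 1 and 7 without empty-virus treated replicate 2.

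In the sort, CDH1+ control cells at day 5.5 differed from CDH1- cells in 18 members, 15 of them in the ATF4 arm. There 3 ATF4 arm genes were higher and 12 lower (median -0.06), and 2 ER chaperone genes were higher and 1 lower (median -0.01), where 26.6% of all genes were called (12.8% higher, 13.8% lower). By TPM, limma called 6 higher and 7 lower in the ATF4 arm and 2 higher and 0 lower in the ER chaperone arm. Slc7a3 was higher in CDH1+ cells, 131 and 136 CPM against 93.7 and 93.5, 0.51 ± 0.035 (SE, adjusted p = 4.9e-25). Slc7a5 was lower, 135 and 144 against 169 and 169 CPM, -0.28 ± 0.035 (SE, adjusted p = 1.5e-08). Shmt2 (-0.26 ± 0.032), Psat1 (-0.25 ± 0.027), Bcat1 (-0.25 ± 0.035), Phgdh (-0.22 ± 0.028) and Mthfd2 (-0.19 ± 0.037) were lower, and Nupr1 (0.15 ± 0.031) and Ddit4 (0.14 ± 0.041) higher. All 6 mitochondrial chaperones and proteases and 7 of 13 other cytosolic tRNA synthetases were lower too. Of the ER genes, Dnajb9 (0.25 ± 0.067) and Edem1 (0.11 ± 0.037) were higher and Herpud1 (-0.15 ± 0.051) lower, and Hspa5 was not called, with 1038 and 1028 against 1060.5 and 1058 CPM. The 18 calls became 10 without CDH1+ control replicate 1. Macrophage markers summed to 53.4 and 55.4 CPM in CDH1+ and to 9.73 and 9.60 in CDH1- control cells, with 4 of 4 higher, and their part was not tested.

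With the inhibitor Slc7a3 was lower in both sorted fractions. In CDH1- cells it stood at 81.2 and 79.6 CPM against 93.7 and 93.5, -0.22 ± 0.036 (SE, adjusted p = 8.1e-07), and in CDH1+ cells at 107 and 113 against 131 and 136 CPM, -0.28 ± 0.034 (SE, adjusted p = 3.9e-11). Treated and control libraries did not overlap in either fraction. In CDH1- cells 1 ATF4 arm gene was higher and 9 lower and 3 ER chaperone genes were higher and 1 lower, where 18.7% of all genes were called (7.82% higher, 10.8% lower). In CDH1+ cells 3 ATF4 arm genes were higher and 5 lower and 1 ER chaperone gene was higher and 1 lower, where 18.8% were called (8.33% higher, 10.5% lower). In all, 14 and 10 of the 43 were called. Limma on TPM gave, in CDH1- cells, 1 higher and 4 lower in the ATF4 arm and 3 higher and 0 lower in the ER chaperone arm. In CDH1+ cells it gave 3 higher and 2 lower and 3 higher and 1 lower. Ddit3 was higher in both, 30.0 and 30.2 against 24.3 and 25.6 CPM in CDH1- cells (0.27 ± 0.058) and 30.9 and 33.2 against 29.3 and 25.7 CPM in CDH1+ cells (0.22 ± 0.056). Sesn2 (-0.18 ± 0.037 and -0.10 ± 0.036), Phgdh (-0.18 ± 0.028 and -0.10 ± 0.028) and Edem1 (-0.11 ± 0.037 and -0.17 ± 0.036) were lower, and Calr (0.14 ± 0.024 and 0.11 ± 0.024) higher, in both fractions. Trib3 was higher in CDH1+ cells (0.25 ± 0.072). The difference between the fractions was called for none of the 43 by edgeR (3 had an unadjusted p under 0.05), nor by DESeq2 or by limma on TPM, where 0.186% of all genes were called (0.0501% more positive, 0.136% more negative). The 14 calls became 9 without CDH1- treated replicate 2, and the 10 calls became 5 without CDH1+ control replicate 2. With the inhibitor the epithelial markers summed to 77.3 and 77.0 CPM against 45.1 and 46.7 in CDH1- cells and to 183 and 182 against 135 and 137 in CDH1+ cells, with 4 of 4 higher in each. Macrophage markers summed to 8.07 and 7.49 CPM in treated CDH1- cells (1 of 4 lower) and to 39.2 and 39.9 in treated CDH1+ cells (2 of 4 lower). Pluripotency markers summed to 215 and 207 CPM against 240.0 and 254 in CDH1- cells and to 223 and 224 against 261 and 250.05 in CDH1+ cells, with 1 higher and 2 lower of the 4 tested in each. Their part was not tested.

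Forced expression of Cdh1 changed few members. In MEFs none was called by edgeR (5 had an unadjusted p under 0.05), nor by DESeq2 or by limma on TPM, where 1.14% of all genes were called, and 1 was called when only those 2 groups were fitted. At day 2, 3 were called, where 0.897% of all genes were (0.146% higher, 0.751% lower). Trib3 stood at 23.2 and 21.8 CPM with the Cdh1 virus against 16.9 and 15.2 with the empty virus, 0.49 ± 0.098 (SE, adjusted p = 0.0086). Sel1l was higher (0.23 ± 0.056) and Bcat1 lower (-0.24 ± 0.058). Those 3 calls became 1 without empty-virus control replicate 1 or Cdh1-virus control replicate 2, and 0 without empty-virus control replicate 2 or Cdh1-virus control replicate 1. Macrophage markers summed to 73.0 and 70.9 CPM with the Cdh1 virus against 203 and 189 CPM at day 2, with 4 of 4 lower, and their part was not tested.

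Under the inhibitor, day 2 cells with the Cdh1 virus had 8 ATF4 arm genes lower and none higher (median -0.17) and 1 ER chaperone gene higher, where 5.05% of all genes were called by edgeR (2.82% higher, 2.23% lower). By TPM, limma called 2 lower in the ATF4 arm and 1 higher in the ER chaperone arm. Slc7a3 stood at 24.2 and 23.1 CPM against 29.7 and 30.5, -0.35 ± 0.072 (SE, adjusted p = 0.007), and Trib3 at 17.7 and 17.7 against 23.2 and 21.8 CPM, -0.35 ± 0.095 (SE, adjusted p = 0.035). Wars was lower here too, 144 and 148 against 177 and 173 CPM (-0.26 ± 0.054), as were Ddit4 (-0.28 ± 0.079), Slc7a5 (-0.25 ± 0.069), Shmt2 (-0.22 ± 0.058), Bcat1 (-0.21 ± 0.058) and Mars (-0.20 ± 0.058). Dnajb9 was higher, 28.8 and 34.7 against 23.8 and 24.2 CPM (0.40 ± 0.086). The treated libraries were the least alike of any pair in the series, with a chi-squared per degree of freedom of 13.93. Standard errors of these changes may therefore be too small. The 9 calls became 3 without Cdh1-virus control replicate 1, 0 without control replicate 2 and 2 without treated replicate 2, and 0 when only those 2 groups were fitted. The inhibitor's effect did not pass the test of a difference between the viruses in any member by edgeR (7 had an unadjusted p under 0.05, and DESeq2 called 1), and in none of all genes.

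Some values rest on genes that share bases with a neighbour. In RefSeq (GRCm38.p6), Ddit3 overlaps Mars and Mbd6, Psph overlaps Cct6a, Hspa5 overlaps Rabepk, Aars overlaps Ddx19b, Shmt2 overlaps Ndufa4l2, Pdia6 overlaps Atp6v1c2, Wars overlaps Wdr25 and Slc7a3 overlaps Snx12. Whether reads were counted by strand is not given in the sources used here, so reads in the shared bases could be assigned to either gene.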

How the data were processed

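RNA of 36 libraries in 18 groups was measured. The authors deposited, for each library, a table of expected counts, TPM and FPKM per gene, and FPKM was not used. Trimmomatic, Bowtie and RSEM 1.2.4 are named in the submitters' processing notes, with the builds mm9 and hg18, and the role of each build is not given in the sources used here. Per the labels' protocols, human 293T RNA was added to the timecourse and sort libraries. No human gene was used for scaling here, so a change in total RNA per cell would not be seen.

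The deposited expected counts were rounded to whole numbers, scaled by TMM and filtered with filterByExpr (minimum count 10, minimum total 15) in edgeR 4.0.16 under R 4.3.3. Quasi-likelihood tests were fitted over all groups of the timecourse (14 libraries, 14473 genes), the sort (8 libraries, 13968 genes), the lentivirus cells with ESCs (14 libraries, 15044 genes), and the timecourse with the lentivirus cells (26 libraries, 14808 genes). CPM are counts in a library scaled to 1000000, and CPM of different fits are on separate scales. Biological coefficients of variation were 2.95%, 2.26%, 5.57% and 4.28% in these fits. P-values were adjusted by Benjamini-Hochberg over all genes of a fit, with a threshold of 0.05. Overlap of groups was read from the CPM of the 2 libraries on each side. The authors' TPM, which the deposited tables scale to gene length, served to compare genes and, as log2(TPM + 1) or log2(TPM + 0.1) with limma 3.58.1 on genes at TPM 1 or more in 2 libraries, as an alternative. The other alternatives were DESeq2 1.42.0, RLE scaling, no filter, a replicate block, fits of only the groups compared and each library left out. The tests were checked on simulated counts.

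The members and gene lists were chosen with earlier results of these data known, and 4 comparisons were added after seeing the data. Members named with full statistics were, in each arm, up to 3 higher and 3 lower that were called with separate libraries, together with Atf4, Ddit3, Trib3, Asns, Mthfd2, Hspa5, Herpud1 and Xbp1, and, from each pathway list, up to 2 genes with the smallest p. Other members are named to complete a role. Promoter windows came from RefSeq tables (GRCm38.p6).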

Additional observations from a re-analysis of the deposited data

Results flagged for a closer look

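Tests of a difference between 2 effects passed the threshold in 3 places. Between day 2 and the full window at day 4 of the timecourse, the inhibitor's effect differed for 7 of the 43 members and 9.18% of all genes. The log2 differences (day 4 minus day 2) were 0.38 for Nupr1, 0.21 for Xbp1, 0.16 for Atf4 and 0.14 for Aars, and -0.76 for Bcat1, -0.24 for Phgdh and -0.18 for Pdia4.

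The change from MEFs to day 2 differed between the empty-virus cells and the timecourse for 36 of the 43 members and 57.6% of all genes. Named with their differences (lentivirus minus timecourse, log2), the stress regulators were Nupr1 at 1.87, Trib3 at 1.71, Ddit3 at 0.71, Atf4 at 0.53, Sesn2 at -0.28 and Ddit4 at -0.38. The metabolic members were Slc7a3 at 2.30, Slc7a5 at 2.05, Mthfd2 at 1.61 and Asns at 1.39. In the ER chaperone arm Pdia6 and Herpud1 were each at 0.49, Manf at 0.45 and Xbp1 at 0.41, while Edem1 was at -0.16, Dnajb9 at -0.58 and Sdf2l1 at -0.81.

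The inhibitor's effect at day 2 differed between those experiments for 4 of the 43 members and 4.29% of all genes. Among them Slc7a3 was at -0.51, Bcat1 at -0.30 and Wars at -0.22 (lentivirus minus timecourse, log2).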

How the results depend on the processing

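Counts of called members that moved by over 1.5 times were all below 21. Fitting only the groups compared gave 16 in place of 9 for the inhibitor at day 2, 1 in place of 0 for the Cdh1 virus in MEFs, 0 in place of 9 for the inhibitor with the Cdh1 virus and 7 in place of 4 for the inhibitor's difference between experiments. DESeq2 gave 9 in place of 14 in CDH1- cells, 6 in place of 10 in CDH1+ cells, 11 in place of 18 between the fractions and 1 in place of 0 for the difference between viruses. Limma on TPM gave 2 in place of 6 for the early window, 4 in place of 7 for day 4 against day 2, 8 in place of 14 in CDH1- cells, 1 in place of 3 for the Cdh1 virus at day 2, 2 in place of 4 for the difference between experiments, and, with the Cdh1 virus and inhibitor, 3 or 1 in place of 9 (pseudocount 1 or 0.1). With pseudocount 0.1 the empty virus and inhibitor gave 5 in place of 8. Leaving out 1 library gave 2 to 4 for the inhibitor at day 2, 2 for the early window, 12 to 15 for full against early, 2 to 6 for day 4 against day 2, 9 to 14 in CDH1- cells, 5 to 9 in CDH1+ cells, 10 to 16 between fractions, 0 to 1 for the Cdh1 virus at day 2, 2 to 10 for the inhibitor with the empty virus, 0 to 10 with the Cdh1 virus, 1 to 7 between experiments and 13 to 16 for early against mid. The ER minus ATF4 difference of medians stayed between -0.51 and -0.47 at day 2 of the timecourse and between -1.19 and -1.13 with the empty virus. For the early window it was 0.022 without early replicate 2 and as low as -0.040 without another library, against -0.02 with all. The change of Hspa5 between the MEFs turned to 0.356 by TPM. By TPM (pseudocount 1) the median of all genes was -0.38 for ESCs against MEFs and 0.34 between the MEFs, against 0.07 for the latter in edgeR. A called result on a named member counted as kept where its call and direction stayed. An uncalled one counted as kept where it stayed uncalled and shifted by less than its SE, whatever its direction. Of 375 such results, RLE scaling kept 367, no filter 356, DESeq2 343, and TPM 316 or 314 with 1 (Hspa5 between the MEFs) reversed each time. Over all refits that left out 1 library, most such results were kept, and more of them lost their call than gained one. Where a lone library was left in a group, its spread was assumed to equal that of the other groups. The cause of these shifts was not tested.

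Replicate numbers were not taken to pair the libraries. The difference of replicate 2 minus replicate 1 was correlated between groups, and not every pair of groups gave a correlation above 0.1. Such a correlation was found in 8 of 21 pairs of groups in the timecourse (median 0.03, -0.26 to 0.33) and 1 of 6 in the sort (median -0.02, -0.18 to 0.15). In the lentivirus cells with ESCs it was found in 4 of 21 (median 0.03, -0.28 to 0.45). Whether some groups share a replicate effect was not tested. With the number as a replicate block, 370 of the 375 results were kept in the sense given above and 5 lost their call. In that fit 38 members were called at day 2 of the timecourse.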
